A study of Mus musculus with 6 samples.

Results

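Histone genes were examined in whole liver of mice given a single dose of ethanol, separating the genes of the replication-dependent histone clusters from the genes of the replacement variants. Members were the rows of the deposited gene table whose symbol names an H1, H2A, H2B, H3 or H4 gene or one of the variants H1f0, H1f10, H2ax, H2az1, H2az2, H3f3a, H3f3b, Macroh2a1 and Macroh2a2, without rows typed as pseudogenes. They numbered 75 of the 28880 genes in the table: 64 clustered genes, 9 variant genes, the germ-cell linker gene H1f8, and the antisense RNA gene H3f3aos, which the name pattern also takes in. Of the clustered genes, 52 lay on chromosome 13, 8 on chromosome 3, 3 on chromosome 11 and 1, H4c16, on chromosome 6.

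All animals were male wild-type C57BL/6J mice aged 6 to 8 weeks. The 3 mice of the ethanol group were fasted for 12 h, received 6 g/kg of 50% (v/v) ethanol once by oral gavage, and gave livers 24 h later, whereas the 3 control mice received no ethanol. The labels do not say whether the controls were fasted or gavaged, so ethanol, fasting and gavage cannot be told apart. Total liver RNA was sequenced, and the 6 libraries held 60514417 to 74210869 counts.

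Replication-dependent histone genes are small, intronless and packed in clusters, and they supply the bulk of new histones while DNA is copied. Their transcripts end in a conserved stem-loop, bound by SLBP, in place of a poly(A) tail, and they are degraded when S phase ends. Variant genes stand alone, mostly carry introns, give polyadenylated transcripts and are used throughout the cell cycle, including in resting cells such as most adult hepatocytes. The variants examined here are H1, H2A and H3 genes, with no H2B or H4 gene among them. The sources used here do not state whether libraries were made by poly(A) selection or by removal of ribosomal RNA, and the former would recover stem-loop transcripts poorly. The levels of clustered genes are therefore levels in these libraries.

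The stem-loop was searched for in the annotated transcripts of both classes. Its sequence is printed for 5 clustered genes and for the 1 variant that carries it. The search took the 16 letters in capitals below, with any base allowed at the fourth, the tenth and the thirteenth place, on the transcript strand of the GENCODE vM21 transcripts, where all 75 members matched by Ensembl identifier. They occurred in 49 of 141767 transcripts (0.0346%), from 47 genes, which included 41 of the 64 clustered genes and 1 of the 9 variants, H2ax. Capitals mark the stem-loop, with up to 5 bases on each side, 5′ to 3′.
H3c15: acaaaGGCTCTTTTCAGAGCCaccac
H2ac25: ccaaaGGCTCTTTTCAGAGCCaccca
H1f2: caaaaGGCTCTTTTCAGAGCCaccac
H2bc8: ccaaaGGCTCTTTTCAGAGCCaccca
H4c14: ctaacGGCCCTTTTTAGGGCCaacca
H2ax: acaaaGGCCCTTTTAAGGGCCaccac
The 9 clustered H4 loops and that of H2ax share 1 stem, seen above in H4c14. The 32 loops of the other clustered types share another, seen in H3c15. No transcript printed above ends at the loop in the annotation. The loop is followed by 377 bases in H3c15, 1643 in H2ac25, 840 in H1f2, 155 in H2bc8, 1257 in H4c14 and 822 in H2ax. Of the 41 clustered genes with the loop, 21 have a transcript running over 100 bases past it. The other 23 clustered genes had no match, many of them with annotated transcripts that end at or near the stop codon, so no match says only that these letters are not in the annotated transcript.

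At the level of single genes, 31 members passed the filter on low counts and were tested by edgeR (quasi-likelihood, p-values adjusted by Benjamini-Hochberg across the 16717 genes tested). A gene was called when its adjusted p was under 0.05 and its log2 fold change lay beyond 1. No tested clustered gene was called higher and 8 of 22 were called lower (36.4%), beside 13.8% of all genes tested that were called lower. Of the 9 variant genes, 3 were called higher and none lower (33.3%), beside 10.4% of all genes called higher. DESeq2 gave the same 0 for clustered genes higher and for variants lower, and at an unadjusted p under 0.05 edgeR had 0 of either. The median log2 fold change was -1.20 for the tested clustered genes, 0.68 for the variants and -0.04 for all genes tested. The filter shaped the counts and the median of the clustered genes: 21 of the 22 tested clustered genes were above the count cutoff in all 3 control libraries but only 5 in all 3 ethanol libraries. The remaining 42 clustered genes did not pass the filter, with 38 counts as the highest value in any library. Without it, 7 of 61 clustered genes were called lower, beside 8.33% of all genes.

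**Figure D1:**
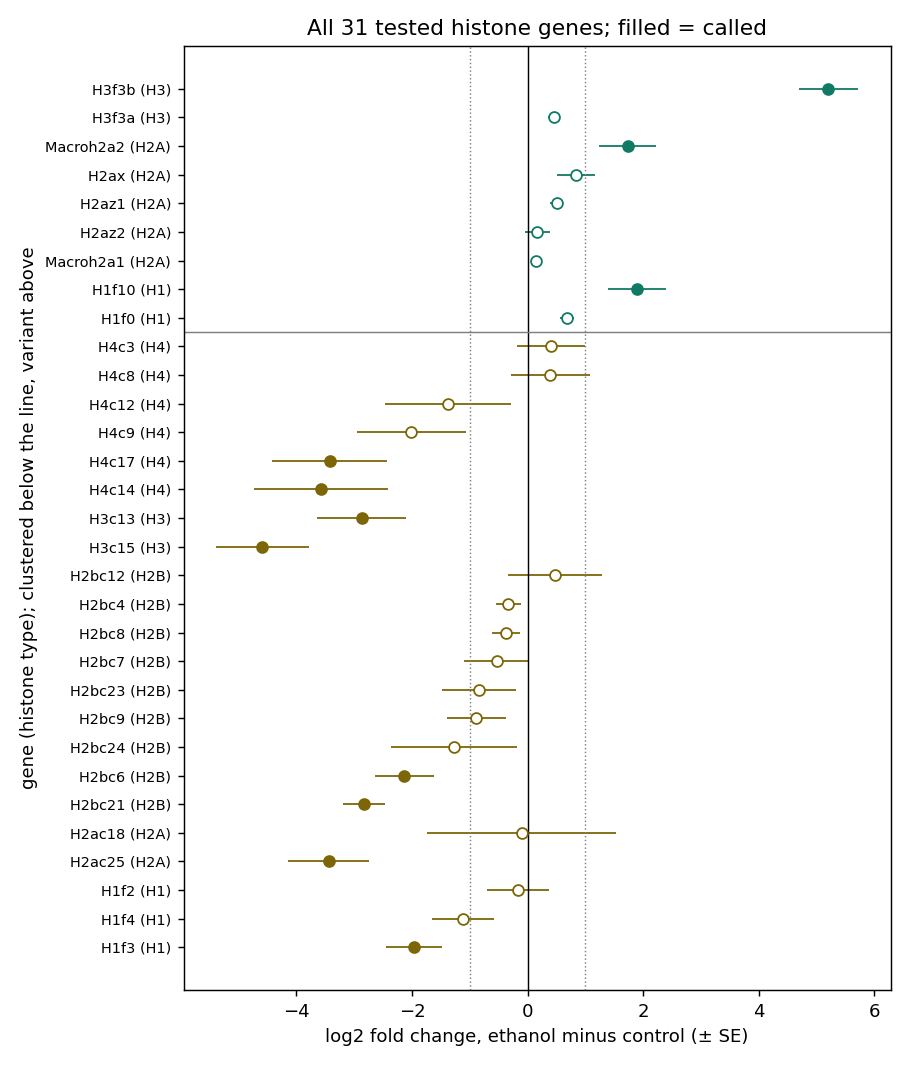
Fitted log2 fold change (ethanol minus control, x axis, with its standard error) of each of the 31 tested histone genes (y axis, with its histone type), for 3 libraries a group. Filled points passed both thresholds (dotted lines mark the fold threshold): 8 clustered genes on the lower side and 3 variants on the higher side, with H3f3b farthest to the right.

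The gene with the largest change among the members was H3f3b, 1 of 2 genes that encode the replacement histone H3.3. Its counts were 251107, 298881 and 70436 in the ethanol livers and 9652, 6622 and 7911 in the controls. The groups did not overlap, and the third ethanol liver stood well below the other two while still far above every control. H3f3b rose by 5.20 on the log2 scale (SE 0.52, adjusted p = 0.000466 by edgeR, 36.9-fold, n = 3 a group). Deposited FPKM values (fragments scaled by transcript length and library depth) averaged 885 ± 509 (SD) after ethanol and 37.7 ± 3.24 in the controls. Among genes tested, 92 had a larger log2 fold change, but none of the 1025 genes that were more abundant than H3f3b in the controls did. By count it ranked 49, 36 and 140 among all genes in the ethanol livers and 964, 1121 and 997 in the controls, and its share of all counts went from between 0.0109% and 0.0130% in the controls to 0.339%, 0.408% and 0.0990% after ethanol. Leaving out any 1 library kept the log2 fold change between 4.90 and 5.61.

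H3f3a, the other H3.3 gene, encodes the same protein but showed no change of that size. Its counts were 6676, 6493 and 5521 in the ethanol livers and 7299, 5962 and 6576 in the controls. The counts overlapped, and the fit gave a log2 fold change of 0.46 (SE 0.10, adjusted p = 0.00844 by edgeR), which is under the fold threshold and turned to -0.21 when scaled by library size alone. By FPKM, H3f3b made up 97.8%, 98.2% and 93.8% of the H3.3 transcripts in the ethanol livers and 60.9%, 56.7% and 58.6% in the controls.

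The promoters of these 2 genes and of H3c15, the clustered H3 gene with the most counts, are printed because the 3 genes encode H3 proteins and moved in different ways. Each is 300 bases, 250 before to 50 after the start, on the gene's strand, from RefSeq (GRCm38.p6), and capitals mark motif letters found on either strand, where neighbouring matches can overlap. The motifs were the CCAAT box that NF-Y binds, the TATA box (searched as TATAAA), the CRE half-site of CREB and ATF factors (searched as TGACG) and the GC box of Sp1 (searched as GGGCGG).
H3f3b, chr11:116024455-116024754, minus strand: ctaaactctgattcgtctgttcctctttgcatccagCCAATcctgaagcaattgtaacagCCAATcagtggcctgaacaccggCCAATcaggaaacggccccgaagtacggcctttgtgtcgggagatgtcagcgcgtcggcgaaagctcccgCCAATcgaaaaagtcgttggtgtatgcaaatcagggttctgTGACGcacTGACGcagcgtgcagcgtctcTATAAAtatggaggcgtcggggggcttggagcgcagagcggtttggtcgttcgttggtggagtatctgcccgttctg
H3f3a, chr1:180813556-180813855, minus strand: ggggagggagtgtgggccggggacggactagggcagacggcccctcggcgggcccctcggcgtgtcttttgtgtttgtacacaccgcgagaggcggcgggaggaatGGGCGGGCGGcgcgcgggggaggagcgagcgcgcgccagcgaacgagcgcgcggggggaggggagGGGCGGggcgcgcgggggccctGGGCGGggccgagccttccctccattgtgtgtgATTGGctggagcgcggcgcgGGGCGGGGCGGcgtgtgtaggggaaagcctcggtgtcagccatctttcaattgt
H3c15, chr3:96239078-96239377, minus strand: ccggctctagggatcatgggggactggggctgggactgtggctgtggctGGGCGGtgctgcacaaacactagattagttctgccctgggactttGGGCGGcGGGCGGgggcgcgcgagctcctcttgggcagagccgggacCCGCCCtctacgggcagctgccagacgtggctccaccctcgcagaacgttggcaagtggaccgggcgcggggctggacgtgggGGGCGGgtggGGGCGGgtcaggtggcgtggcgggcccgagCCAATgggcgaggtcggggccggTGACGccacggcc
The H3f3b window held 4 CCAAT boxes, 1 TATA box, 2 CRE half-sites and no GC box, whereas the H3f3a window held 1 CCAAT box, 6 GC boxes and neither of the other motifs. H3c15 held 1 CCAAT box, 1 CRE half-site and 6 GC boxes. Of all 32851 promoter windows of this length, 37.4% held a CCAAT box, 13.6% a TATA box, 20.8% a CRE half-site and 35.7% a GC box. Windows were found for 64 members, namely 55 clustered genes with 56 windows, 8 variants and H1f8. A CCAAT box was present in 85.7% of the clustered windows and in 5 of the 8 variant windows, and a TATA box in 58.9% of the clustered windows and, among the variants, in that of H3f3b alone. CRE half-sites were in 46.4% of the clustered and 2 of the variant windows, and GC boxes in 39.3% and 6, the clustered share being close to that of all windows. These matches describe letters and are not evidence of binding.

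Among the H1 variants, H1f10, a linker histone found in many tissues, was called higher with few counts. It had 46, 31 and 26 counts in the ethanol livers and 13, 9 and 18 in the controls, so that every ethanol liver lay above every control. Its log2 fold change was 1.90 (SE 0.50, adjusted p = 0.0206 by edgeR). The call was lost without ethanol 1 (1.62), control 1 (1.80) or control 2 (1.73), and with library size alone (1.23). H1f0, the linker histone typical of resting and differentiated cells, had 7354, 6943 and 7643 counts in the ethanol livers against 8331, 5721 and 6135 in the controls. Its log2 fold change of 0.68 (SE 0.12, adjusted p = 0.00494) was under the fold threshold and was 0.01 with library size alone.

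Of the H2A variants, Macroh2a2, a macro-domain histone of silent chromatin, was called higher. Its counts of 93, 74 and 78 in the ethanol livers all exceeded the 21, 56 and 27 of the controls, although the second control was close to them. The log2 fold change was 1.73 (SE 0.49, adjusted p = 0.026). This call was lost without ethanol 1 (1.62), control 1 (1.41) or control 3 (1.57), and with library size alone (1.06). Its far more abundant paralogue Macroh2a1 had 3316, 3506 and 2794 counts after ethanol and 4885, 3810 and 3898 in the controls, and was not called (log2 fold change 0.15, adjusted p = 0.251). H2az1 and H2az2, which encode the 2 forms of H2A.Z, the variant placed at promoters and enhancers, were not called either. H2az1 had 2909, 2996 and 2355 counts against 2980, 2486 and 3010, and H2az2 had 767, 787 and 433 against 1027, 769 and 773. Their log2 fold changes were 0.50 (adjusted p = 0.0106) and 0.17 (adjusted p = 0.553).

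H2ax, the variant phosphorylated around DNA breaks and the only one with the stem-loop printed above, varied within the ethanol group. It had 449, 403 and 850 counts there against 572, 416 and 427 in the controls, so that only the third ethanol liver was high by count. On the TMM scale all 3 ethanol livers (7.80, 6.59 and 15.6 CPM) lay above every control (6.09, 5.46 and 5.19 CPM). The log2 fold change of 0.84 had an adjusted p of 0.0724 by edgeR, and it was 0.38 without the third ethanol liver. It was 0.81 with DESeq2 (adjusted p = 0.0372), under the fold threshold, and 0.16 with library size alone. Without the second ethanol liver it was 1.06 and was called.

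The scale used decides the direction of 4 of the 6 variant changes under the fold threshold. The TMM factors of edgeR ran from 0.768 to 0.836 in the ethanol libraries and from 1.26 to 1.27 in the controls, and with library size alone the median of all genes moved to -0.71. All 9 variants had positive log2 fold changes with TMM and 7 had every ethanol liver above every control, which 28.0% of all genes did. With library size alone, and on FPKM, the signs of H3f3a, H2az1, H2az2 and Macroh2a1 turned negative, while H3f3b, H1f10, Macroh2a2, H2ax and H1f0 stayed positive, H1f0 at 0.01 or less.

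**Figure D2:**
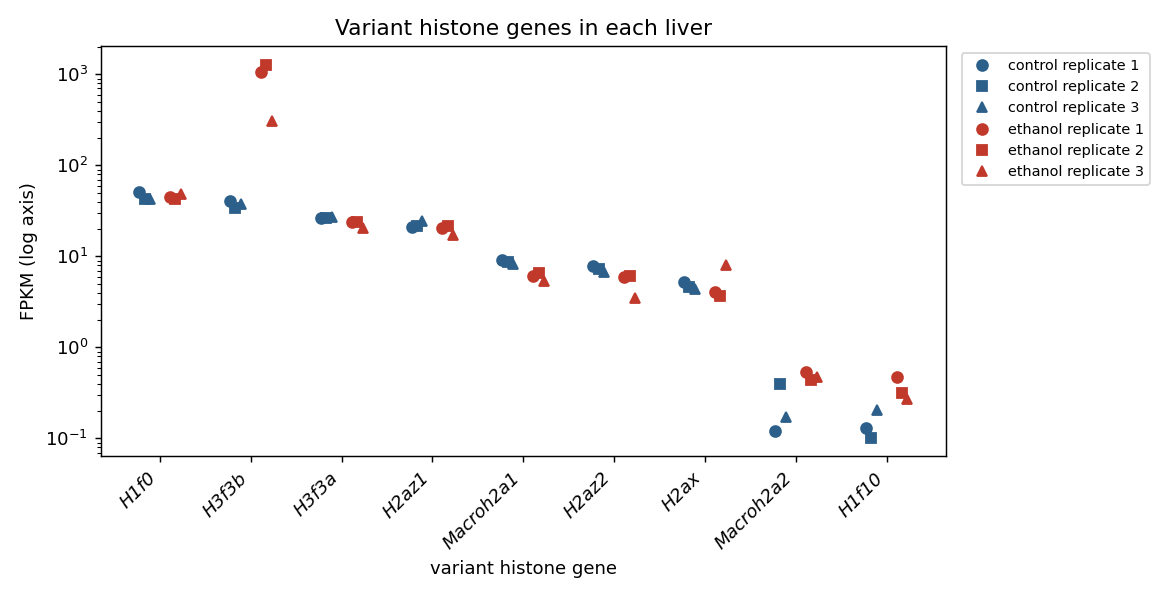
Deposited FPKM (y axis, log axis) of the 9 variant histone genes (x axis, ordered by control level) in each of 3 control and 3 ethanol livers, 1 point a liver. H3f3b moves from 34.4 to 40.9 FPKM in the controls to 311 FPKM or more after ethanol, and no other variant moves comparably.

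In the controls the order of FPKM levels among all members began with H2bc4 (122 ± 5.39, SD), H1f2 (49.3 ± 0.772), H1f0 (45.6 ± 4.77), H3f3b (37.7 ± 3.24), H3f3a (26.5 ± 0.298), H2bc8 (24.2 ± 1.71) and H2az1 (22.3 ± 1.65). H1f2 and H1f0 had overlapping values, as did H2bc8 with H2az1, and the other neighbours in this order did not overlap. Only 3 clustered genes reached 10 FPKM in the controls, and 55 of the 64 averaged under 1 FPKM. H2bc4 and H1f2 alone held 84.6% of the clustered CPM (counts scaled to library depth with TMM factors) in the controls and 89.9% after ethanol.

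These abundant clustered genes were not called. H2bc4 encodes a core H2B and had 6887, 6243 and 3448 counts in the ethanol livers against 11112, 9577 and 9508 in the controls. All 3 ethanol livers were below the controls by count, and by FPKM (75.0, 68.9 and 39.2 against 121, 128 and 118), but the values overlapped on the TMM scale and the log2 fold change was -0.34 (SE 0.22, adjusted p = 0.254 by edgeR); on log2(FPKM + 1) with limma it was -1.04 and passed. H2bc8, another H2B gene, had 719, 647 and 350 counts against 1194, 1033 and 971, with a log2 fold change of -0.37 (adjusted p = 0.252). It reached -1.03 and was called with library size alone. Limma also called it, at -1.03 on log2(FPKM + 1) and -1.09 on log2(FPKM + 0.1). H1f2, the most abundant clustered linker histone gene, had 3894, 5611 and 842 counts against 6112, 5042 and 5291. The third ethanol liver was low and the other two lay above the control range on the TMM scale, whereas FPKM of 31.4, 45.9 and 7.08 all lay below the 48.5 to 50.0 of the controls. The log2 fold change was -0.80 with library size alone and -1.12 with limma on log2(FPKM + 1), not called in either, and on the TMM scale it went from -0.16 to 0.30 when that liver was left out.

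The clustered genes called lower came from all 5 histone types and had low levels, none above 3.51 FPKM on average in the controls. H3c15, which encodes a replication-dependent H3, had 6, 16 and 0 counts in the ethanol livers and 247, 278 and 234 in the controls. Its log2 fold change was -4.59 (SE 0.80, adjusted p = 0.004 by edgeR), the largest drop among the tested members with all 6 libraries. Leaving out 1 library gave -5.79 to -4.02. H3c13, an H3 gene of the same cluster, had 1, 1 and 4 counts against 23, 24 and 20 (-2.87, adjusted p = 0.0213). In both, no ethanol liver reached the lowest control.

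H2ac25, an H2A gene of the chromosome 11 cluster, had 25, 2 and 23 counts after ethanol against 286, 296 and 220 (log2 fold change -3.44, SE 0.70, adjusted p = 0.00739). It overlaps Trim17 on the same strand and shares 28.0% of its 150-base windows with it, so counts of the pair can be mixed. H2bc21, the H2B gene of the chromosome 3 cluster, had 16, 26 and 23 counts against 350, 158 and 182 (-2.83, SE 0.37, adjusted p = 0.00132). H2bc6 had 17, 30 and 7 counts against 104, 128 and 105 (-2.14, adjusted p = 0.0138) and overlaps H1f4 on the same strand.

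Of the H1 genes, H1f3 was called lower, with 9, 17 and 8 counts after ethanol and 78, 71 and 43 in the controls (log2 fold change -1.96, SE 0.49, adjusted p = 0.0158 by edgeR). That call was lost without ethanol 1 (-1.82), control 1 (-1.90) or control 2 (-1.79), and the call of H2bc6 was lost without control 2 (-1.96). With limma on log2(FPKM + 1), H2bc21 (-0.98) and H2bc6 (-0.37) were under the fold threshold and lost their calls. The H4 genes H4c14 and H4c17 were near the limit of detection after ethanol. H4c14 had 0, 0 and 4 counts against 38, 22 and 17 (-3.58, adjusted p = 0.0417), and H4c17 had 2, 2 and 0 against 14, 36 and 14 (-3.43, adjusted p = 0.0289). Leaving out any library but the third ethanol one ended the calls of H4c14, H4c17 and H3c13, at log2 fold changes of -3.82 to -2.53. With no filter on low counts, H4c14 and H4c17 were not called (adjusted p = 0.0876 and 0.0603 by edgeR). Without the third ethanol liver H4c14 had no count left after ethanol, so that the size of its fitted change (-7.48 then) rests on 4 counts, and H3c13 was at -3.85. H4c9, the H4 gene with the most counts, had 18, 20 and 0 against 111, 59 and 54 and was not called (-2.01, adjusted p = 0.125), but was with library size alone (-2.66), with limma on log2(FPKM + 0.1) (-2.47) and without the third ethanol liver (-1.43). H4c8 had 70, 23 and 12 against 47, 44 and 25 (0.39, adjusted p = 0.666), with the groups overlapping.

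**Figure D3:**
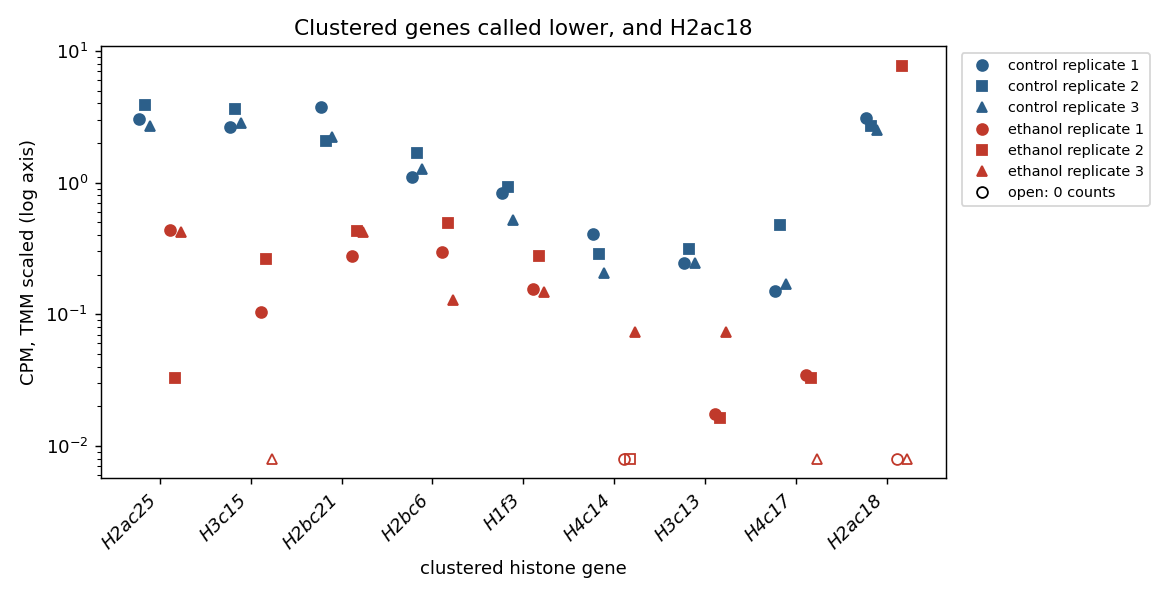
CPM after TMM scaling (y axis, log axis) of the 8 clustered genes called lower and of H2ac18 (x axis) in each of 3 control and 3 ethanol livers, 1 point a liver, open symbols at the bottom for 0 counts. Each of the 8 genes has every ethanol liver below every control, whereas H2ac18 has 0 counts in ethanol 1 and 3 and its highest value in ethanol 2.

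H2ac18, an H2A gene on chromosome 3, behaved unlike its neighbours. It had 0, 473 and 0 counts in the ethanol livers and 289, 206 and 208 in the controls, so the second ethanol liver was the highest of the 6 libraries. The log2 fold change of -0.10 (SE 1.63, adjusted p = 0.966 by edgeR) averages over that split. Without the second ethanol liver the gene had no count after ethanol and was called lower. In GENCODE vM21, 87.0% of its 150-base windows also occur in other genes, among them Hist2h2aa2, a near-identical copy that was not analysed here. How counts were divided between such copies is not given in the sources used here.

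By cluster, 4 of the 5 tested genes on chromosome 3 were called lower, as were the only one tested on chromosome 11 and 3 of 16 on chromosome 13, beside 13.8% of all genes tested and with most of these genes past the filter through the controls. The 8 chromosome 3 genes summed to 0.452, 8.50 and 0.568 CPM in the ethanol livers and 10.1, 9.23 and 8.31 CPM in the controls, so that the groups overlapped through H2ac18 in the second ethanol liver. The 52 chromosome 13 genes summed to 205, 208 and 87.3 CPM against 204, 215 and 199 CPM, which also overlapped. The control-to-ethanol ratios were 2.91 and 1.23. With genes left out after their values were seen, the sums did not overlap: chromosome 3 without H2ac18 gave 0.452, 0.769 and 0.568 against 7.06, 6.52 and 5.78 CPM (ratio 10.8), and chromosome 13 without H2bc4 and H1f2 gave 18.1, 14.5 and 8.67 against 20.6, 23.5 and 19.1 CPM (ratio 1.53). These are descriptions, and the difference between clusters was not tested.

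By histone type, the clustered H3 genes stood out in size. Their 11 genes summed to 0.400, 0.687 and 0.128 CPM after ethanol against 3.46, 5.05 and 3.89 CPM in the controls, a ratio of 10.2. H3c15 gave most of these counts in the controls but not after ethanol. Variant H3 transcripts summed to 4480, 4993 and 1392 CPM against 181, 165 and 176 CPM. The clustered H2B sums, 135, 115 and 71.2 CPM against 138, 145 and 132 CPM, and the clustered H1 sums, 68.0, 92.6 and 15.8 CPM against 66.6, 67.8 and 65.7 CPM, followed H2bc4 and H1f2. Summed over all 64 clustered genes, CPM overlapped between the groups (206, 217 and 88.5 against 217, 229 and 210), while FPKM did not (128, 142 and 56.3 against 219, 230 and 209).

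**Figure D4:**
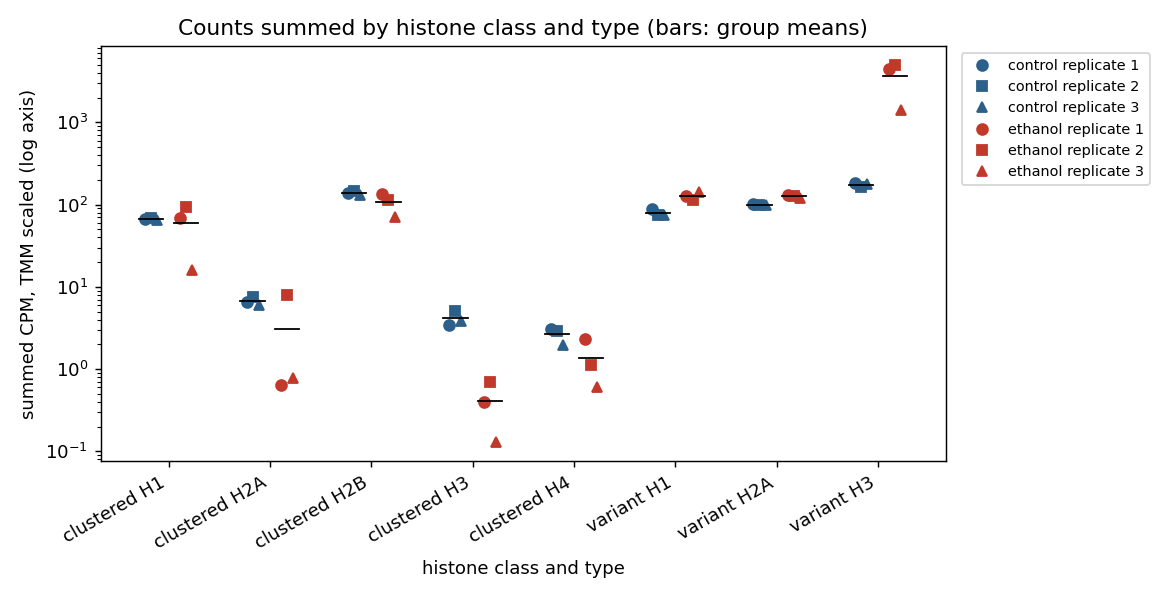
Summed TMM-scaled CPM (y axis, log axis) of the clustered and variant histone genes of each type (x axis) in each of 3 control and 3 ethanol livers, 1 point a liver, with a bar at each group mean. The clustered H3 sum is lower in every ethanol liver (0.128 to 0.687 CPM) than in every control (3.46 to 5.05 CPM), and the variant H3 sum is higher.

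Among the 42 clustered genes that did not pass the filter, 32 had a lower and 7 a higher mean CPM after ethanol, and 3 had no count in any library. They summed to 1.65, 0.965 and 1.14 CPM in the ethanol livers and 1.82, 3.35 and 2.54 CPM in the controls. Named after their values were seen, H3c4 had 0, 1 and 0 counts against 8, 10 and 38, and was called lower by DESeq2 and by edgeR without the filter. H2bc3, named in the same way, had 23, 8 and 14 against 1, 3 and 8, and was the only clustered gene with every ethanol liver above every control on the TMM scale, while its counts tied at 8; limma on log2(FPKM + 0.1) called it higher. H1f8, known from the oocyte, had 0, 0 and 5 counts against 0, 0 and 0, and H3f3aos had 0, 7 and 0 against 20, 0 and 12.

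Over the tested clustered genes, 12 of 22 (54.5%) had every ethanol liver below every control, beside 31.0% of all genes tested, on the TMM scale, a count that the filter favours since most of these genes passed it through the controls. Grouped by the annotated stem-loop, 5 of the 11 tested genes whose transcript runs over 100 bases past the loop were called lower, as were 1 of the 5 whose transcript ends sooner and 2 of the 6 without the loop, beside 13.8% of all genes tested called lower; these groups are small and were not compared by a test. Shared sequence also limits single calls: 14 of the 22 tested clustered genes share over 10% of their 150-base windows with other genes. Among them were H3c15 with 59.4%, H3c13 with 73.8% and H4c17 with 85.8%. H3c13 and H3c15 share windows with each other and with H3c14, so their counts can be mixed and their calls may not be separate.

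Of 17 tested genes of histone mRNA synthesis and processing, 4 were called lower and none higher (1 higher at an unadjusted p under 0.05), beside 13.8% and 10.4% of all genes tested, with a median log2 fold change of -0.34. Ncbp2, a subunit of the nuclear cap-binding complex, had 244, 315 and 261 counts after ethanol against 1374, 1152 and 997 (-1.56, adjusted p = 0.000483 by edgeR). Eri1, an exonuclease that trims the stem-loop end, had 244, 236 and 118 counts against 821, 642 and 746 (-1.35, adjusted p = 0.00599). Slbp, the stem-loop binding protein, was not called, with 423, 427 and 688 counts against 1086, 793 and 960 (-0.32, adjusted p = 0.316), nor was Npat, the activator of clustered histone genes, with 488, 469 and 369 against 406, 336 and 409 (0.74, adjusted p = 0.0103).

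Of 27 histone chaperone and remodeller genes, 1 was called higher and 2 lower, with a median of 0.01, beside 24.2% of all genes called in either direction. The 2 large subunits of CAF-1, which deposits replication-coupled H3 and H4, went opposite ways: Chaf1b rose, with 267, 318 and 191 counts against 106, 79 and 93 (2.02, adjusted p = 0.000906), and Chaf1a fell, with 60, 63 and 61 against 167, 224 and 308 (-1.40, adjusted p = 0.0119). Ubn2, of the HIRA complex that deposits H3.3, fell by 1.05 on the log2 scale (adjusted p = 0.00525 by edgeR). Of the same complex, and named after their values were seen, Hira (0.70, adjusted p = 0.00803) and Cabin1 (0.65, adjusted p = 0.0106) were under the fold threshold on the higher side, and Ubn1 (-0.45, adjusted p = 0.0138) on the lower side.

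Of 24 tested genes of S phase and proliferation, 8 were called lower and 2 higher, beside 13.8% and 10.4% of all genes tested, with a median of -0.87. All 24 were above the filter's cutoff in every control but 19 in every ethanol library, which favours lower calls. E2f2, a transcription factor of S phase entry, had 7, 15 and 9 counts against 93, 182 and 123 (-3.18, adjusted p = 0.00246), and Birc5, which acts in mitosis, had 12, 18 and 12 against 104, 92 and 113 (-2.34, adjusted p = 0.00232). Ccne1, encoding cyclin E1, rose from 17, 51 and 44 counts in the controls to 286, 255 and 208 (3.23, adjusted p = 0.00194), and Rrm2, a ribonucleotide reductase subunit, from 165, 178 and 207 to 407, 471 and 486 (1.84, adjusted p = 0.00079). Mki67 (32, 25 and 20 counts against 41, 48 and 95), Top2a (22, 35 and 4 against 53, 84 and 84) and Pcna (1068, 1469 and 866 against 1633, 1330 and 1507) were not called, with adjusted p of 0.256, 0.143 and 0.521 by edgeR.

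The calls in the cell type lists that follow stand beside 10.4% of all genes called higher and 13.8% called lower, and several lists are near those shares. Liver identity held in every library, with all 11 hepatocyte markers tested and 4 of them, Cyp2e1 and Apoa1 first, called higher. Their sum was 155341 to 162226 CPM after ethanol and 82357 to 93997 CPM in the controls. With library size alone it was 124402 to 129794 against 103698 to 118882, so the size of the gap depends on the scale. Neutrophil markers were at most 0.522 CPM in sum in the controls and 2.49, 3.86 and 13.4 CPM in the ethanol livers, and the 5 tested markers of 10 were called higher. Only 1 of these 5 was above the filter's cutoff in all 3 controls, so that the others entered through the ethanol group, and the 5 untested ones had 16 counts or fewer in every library. The 2 with the smallest adjusted p were S100a8 (33, 40 and 160 counts against 0, 0 and 4) and S100a9. The highest neutrophil sum was in the third ethanol liver. Of the ethanol livers it had the least H3f3b, H1f2 and H2bc4 and the most H2ax, genes picked after their values were seen. Not every member was lowest or highest there, as with H2ac25 (25, 2 and 23 counts). This is 1 liver, and no relation of histone genes to neutrophil markers was tested. Erythroid markers, Hba-a1 and Hba-a2 first, summed to 579 to 864 CPM after ethanol and 180 to 220 CPM in the controls, with 4 of 5 tested called higher. T cell markers summed to 0.785 to 1.39 CPM against 2.37 to 3.07 CPM, and 1 of 4 tested, Cd4, was called lower, as was 1 of 6 B cell markers, Ms4a1; only 2 of the 4 and 3 of the 6 were above the cutoff in every ethanol library, against 4 and 5 in every control. Kupffer cell markers had 0 calls by edgeR in 10 (4 lower at an unadjusted p under 0.05). Endothelial markers had 2 higher (Lyve1, Cdh5) and 4 lower (Oit3 and Fcgr2b first). Stellate cell markers had 2 lower of 10 (Col3a1, Col1a1) and cholangiocyte markers 1 higher of 6 (Sox9). On the TMM scale the Kupffer sums (123 to 168 against 153 to 170 CPM) and endothelial sums (132 to 209 against 182 to 205 CPM) overlapped. The stellate sums were higher after ethanol (237 to 277 against 207 to 233 CPM). With library size alone all of these sums were lower in every ethanol liver. They were 103 to 131 against 194 to 214 (Kupffer), 103 to 160 against 229 to 259 (endothelial) and 182 to 231 against 262 to 292 (stellate). The part of these cell types in the histone results was not tested, and in whole liver fewer cells of a type and less RNA per cell cannot be told apart.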

How the data were processed

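One RNA-seq library per mouse was deposited, with 3 mice a group. The authors removed adaptor and low-quality reads, aligned them and deposited gene counts and FPKM (scaled by transcript length and library depth) in 1 table; aligner, counter, strand setting and library selection are not given in the sources used here. The submitters' processing notes name GRCm38, but none of 70 matched members started within 1 kb of its GRCm38.p6 position, so the table's coordinates are not printed. A count column matching no library (1) was not used. Counts were filtered (filterByExpr, minimum count 10), scaled by TMM and tested two-sided with edgeR 4.0.16 in R 4.3.3. Alternatives used DESeq2 1.42.0, limma 3.58.1 on log2(FPKM + 1) or log2(FPKM + 0.1), other scaling, no filter, a replicate block, and each library left out. Scripts were tested on simulated data. Named genes were all variants, all members called, the 2 most abundant clustered genes of each type, for each other list the 2 called with the smallest adjusted p in each direction, and Slbp, Npat, Mki67, Top2a and Pcna. Members and lists were chosen with earlier results of these data known. Nothing names separate cohorts, so p-values measure only the spread between these mice. Tf, Epb42 and 5 of 6 male germ cell markers matched no symbol and were not analysed here. The last of the 6, Ddx4, was too low to test. The name Ars2 matched no symbol either, but the same gene was analysed as Srrt.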

Additional observations from a re-analysis of the deposited data

How the results depend on the processing

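The count of clustered genes called lower, 8 of 22 tested beside 13.8% of all genes, depended on the fit. It was 4 of 30 with limma on log2(FPKM + 1), beside 10.7% of all genes. Of these 4, H3c15 and H2ac25 were among the 8, whereas H2bc4 and H2bc8 were not. In that fit H2bc6, H2bc21, H3c13, H4c14 and H4c17 were not called, and H1f3 was not tested. The count was 17 of 30 with limma on log2(FPKM + 0.1), beside 31.0%, and 12 of 22 with library size alone, beside 32.2%. With the replicate block it was 5 of 22, beside 12.0%, and it was 3 to 10 when 1 library was left out. Leaving out any of 4 libraries moved the count by over 1.5 times. It was 5 of 28 tested without ethanol 1, beside 11.9% of all genes, and 5 of 28 without control 1, beside 10.2%. It was 5 of 27 without control 3, beside 9.88%. Without control 2 it was 3 of 25, beside 10.1%, which is near the share of all genes. The count of clustered genes called higher was 0 except for 1 with limma on log2(FPKM + 0.1). The 3 of 9 variants called higher (beside 10.4% of all genes) became 1 with library size alone, beside 5.06% of all genes. The count was 1 with either limma fit, beside 2.55% (pseudocount 1) and 4.70% (pseudocount 0.1), and 6 with adjusted p alone, beside 21.5%. Leaving out 1 library gave 1 to 4, with 1 without ethanol 1 (beside 8.76%) or control 1 (beside 8.79%). The clustered median of -1.20 became -1.85 with library size alone, -0.63 and -1.48 with the limma fits (pseudocounts 1 and 0.1), -1.96 with the block, and -1.47 to -0.82 when 1 library was left out. The variant median of 0.68 became 0.00577 with library size alone, 0.00541 and 0.00557 with the limma fits, and 0.58 to 0.76 when 1 library was left out. H3f3b, H3c15 and H2ac25 kept their calls under every alternative run. H3c13, H4c14 and H4c17, with the fewest counts, lost theirs in 5 of 6 runs that left out a library and under the replicate block, which also lost H1f10. Replicate numbers do not pair the mice: deviations of same-numbered mice correlated at -0.035, -0.021 and -0.017.

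Directions turned for genes that were not called. With library size alone, limma on log2(FPKM + 1) and limma on log2(FPKM + 0.1), log2 fold changes were -0.17, -0.17 and -0.17 for H2az1, -0.50, -0.46 and -0.53 for H2az2, -0.21, -0.21 and -0.22 for H3f3a, -0.51, -0.46 and -0.51 for Macroh2a1, and -0.28, -0.22 and -0.53 for H4c8. Leaving out 1 library gave -0.64 to 0.30 for H1f2, -10.66 to 0.50 for H2ac18, whose lowest value leaves 0 counts in ethanol, and -0.62 to 0.80 for H4c8. The cause of these shifts was not tested.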

Other observations

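Of the 4 other tested genes within 50 kb of H3f3b in the table, Galk1, encoding galactokinase, was called higher at 1.04 on the log2 scale (adjusted p = 0.00271 by edgeR), and Unk, Itgb4 and Unc13d were not called, with log2 fold changes of -0.19, 0.06 and -0.74. These genes were chosen after the values of H3f3b were seen.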
